A study of Mus musculus with 32 samples.

Results

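The solute carriers described here are 127 genes of the mouse Slc families, of 8251 genes with a probe set of their own on the array. They were chosen by symbol: every gene named Slc, a family number and the letter a (143 genes), leaving out 16 carriers of glucose, large neutral amino acids, citrate, carnitine, fatty acids, phosphate and metals. A gene with several probe sets (25 of the 127) is represented by the brightest over the 32 arrays. The name rule also catches 3 genes whose products are not carriers: Slc9a3r1 and Slc9a3r2, scaffold proteins of the sodium-proton exchangers, and Slc4a1ap, an adaptor protein. The RNA came from wild-type FVB mice, an inbred strain, and was hybridised to Affymetrix MG_U74Av2 arrays, 1 array per sample. The time course had 4 mammary arrays for each of 5 stages, days 12 and 17 of pregnancy and then days 1, 2 and 9 of lactation, from mice on chow. The diet experiment had 3 arrays each of mammary gland from dams labelled as receiving 8%, 16% or 40% dietary fat, and 3 of liver from the 8% dams. The 8% and 40% diets took their percentage of calories from soy oil. They replaced chow at lactation day 5 for 5 days, and tissue was taken at lactation day 10. The feeding and stage of the 16% dams are not stated. Groups were taken from the sample titles, because the free-text descriptions of the 8% and 16% mammary arrays name the 40% diet. The labels give no age, do not match liver to mammary samples of 1 dam, and call the replicates individual samples, so p-values measure the spread between such samples.

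Solute carriers are membrane proteins that move ions, nutrients and metabolites across the plasma membrane or between the cytosol and an organelle, down a gradient or coupled to another ion. In the secretory alveolar cell of the lactating gland they bring glucose, vitamins, metals and phosphate in from the blood, and carry sugar nucleotides and zinc into the Golgi apparatus, where lactose is made and milk proteins are packed. Mitochondrial carriers of the Slc25 family link the cytosol to the citrate cycle and the respiratory chain.

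Values are log2 of the intensity, a probe set's brightness, and are not comparable between genes as transcript numbers. A group mean of 4.22, the log2 of the median of all values, is called the line below; a probe set entered a comparison only if its highest group mean reached it. Of the 127 carriers, 89 were above the line in at least 1 of the 9 groups, 50 in all 9, and 38 in none. Being below it does not show absence: Slc25a3, the phosphate carrier that every respiring cell uses, was among the 38. Array medians lay between 16.1 and 21.5 intensity units, and no array correlated with the others of its group below 0.973 on average. Marker genes matched the labelled tissues, with 11 of 11 milk protein genes above the line in every mammary group and 10 of 10 hepatocyte genes in liver. In bulk tissue, fewer cells of a type and less RNA per cell cannot be told apart. From pregnancy day 12 to lactation day 9 the summed level of 9 adipocyte markers went from between 12.86 and 13.53 to between 10.28 and 10.92 per array, and 10 of 10 fibroblast markers and 8 of 9 macrophage markers tested fell. Of the epithelial lists, 6 of 9 luminal markers tested fell and 1 rose (median -1.52), all 5 myoepithelial markers tested fell (median -1.24), and all 11 milk protein genes rose (median 1.52). The part of these shifts in the carriers' changes was not tested. Dim probe sets also drifted upward over the stages: among probe sets with a mean under 5 the median change from pregnancy day 12 to lactation day 9 was 0.42, against -0.46 at or above the 75th percentile.

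Over the time course 73 of the 127 carriers could be tested, and 62 of them differed between some of the 5 stages (limma F test, Benjamini-Hochberg adjusted over 7189 probe sets), against 87.5% of all probe sets tested. The share was therefore near the background. Of these 62, 37 had their lowest mean at pregnancy day 12, and 23 had their highest at lactation day 9. The same counts are not given for all probe sets, so they do not set the carriers apart from the upward drift of dim probe sets. Between pregnancy days 12 and 17, 28 of 73 carriers passed the test (background 45.1%), 20 higher (18.4%) and 8 lower (26.7%) at day 17, where each bracket gives the share of all probe sets called that way. Between pregnancy day 17 and lactation day 1, 23 passed (background 23.3%), 14 higher (9.32%) and 9 lower (14.0%). Between pregnancy day 17 and lactation day 2, 39 passed (background 49.9%), 29 higher (25.5%) and 10 lower (24.5%). From lactation day 2 to day 9, 15 passed (background 25.0%), 6 higher (8.82%) and 9 lower (16.2%). Across the whole span, lactation day 9 against pregnancy day 12, 48 passed (background 77.6%), 35 higher and 13 lower. The higher side held 35.2% of all probe sets, 47.9% of the carriers, and the lower side 42.4% and 17.8%. At least 2-fold rises that passed numbered 9 (background 9.72%) and such falls 6 (background 22.5%). The median change over the span was 0.32 for the carriers and -0.13 for all probe sets tested. Most of these splits moved with the scaling, while that of the pregnancy step stayed at 20 and 8 with ribosomal medians equal. With the medians of 11 ribosomal protein genes set equal on all arrays, the calls were 47 higher and 4 lower for lactation day 1, 60 and 4 for day 2, 3 and 14 from day 2 to day 9, and 55 and 9 over the span, as the median of all probe sets moved to 0.37, 0.58, -0.08 and 0.32. After quantile normalization the calls were 30 higher and 8 lower during pregnancy, 13 and 6 from lactation day 2 to day 9, and 50 and 11 over the span, where the median of all probe sets moved to 0.09. For lactation days 1 and 2 they were 15 and 8, and 27 and 10. These comparisons share groups (pregnancy day 17 stands in 3 of them), so their counts are not independent of each other.

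**Figure D1:**
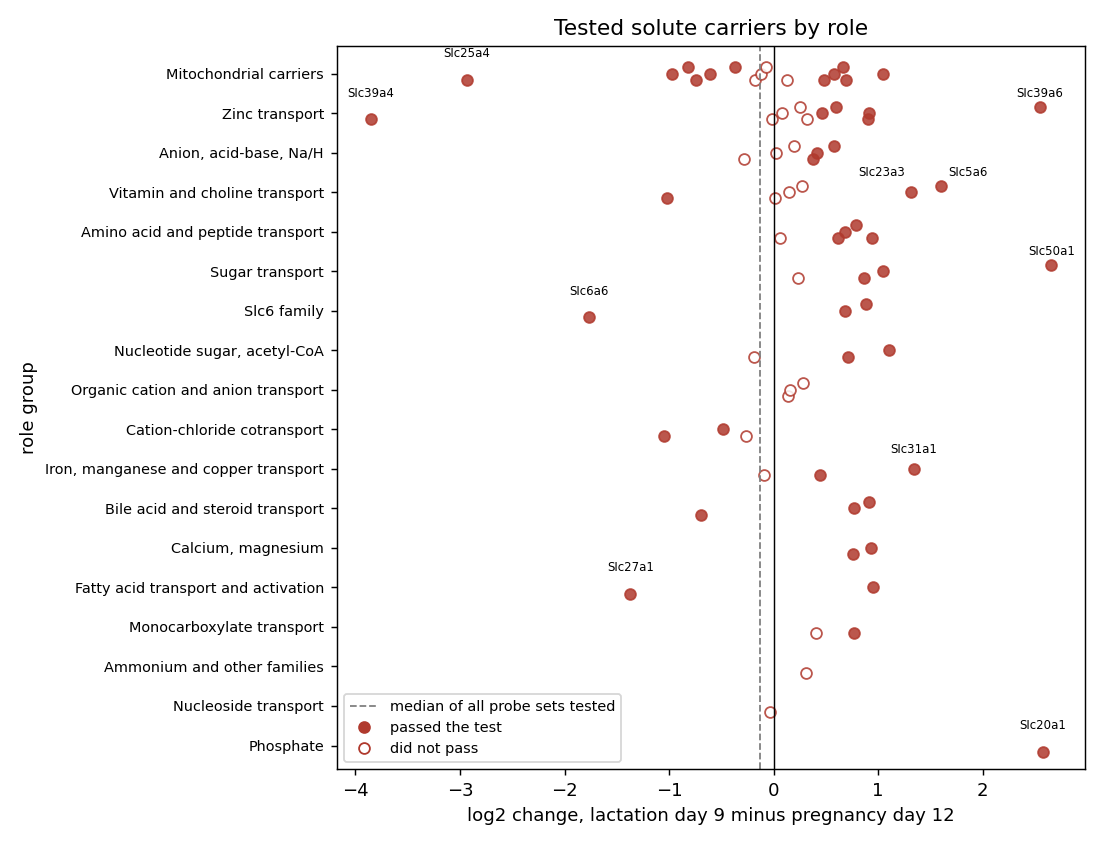
Log2 change from pregnancy day 12 to lactation day 9 for each of the 73 tested carriers (points, x axis), arranged by role group (y axis); filled points passed the test, open points did not, and the dashed line is the median of all 7189 probe sets tested, -0.13. Slc50a1, Slc20a1 and Slc39a6 lie farthest to the right, at 2.66, 2.58 and 2.55, and Slc39a4 and Slc25a4 farthest to the left, at -3.86 and -2.93.

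Among the sugar carriers, 3 of the 4 tested rose from pregnancy day 12 to lactation day 9 and none fell. Over that span 35.2% of all probe sets rose and 42.4% fell, shares that apply to each role group's count over it below. Slc50a1 encodes the glucose transporter SWEET1, which is found in the Golgi apparatus and linked there to lactose synthesis. Its 4 arrays read 7.42, 6.92, 7.08 and 7.09 at pregnancy day 12 and 8.48, 8.38, 8.04 and 8.38 at day 17. They read 9.66, 9.55, 9.39 and 9.78 at lactation day 1, 9.57, 9.49, 9.41 and 9.40 at day 2, and 10.23, 9.76, 9.59 and 9.57 at day 9. The 3 earliest stages formed separate steps with no overlap between arrays, while lactation days 1 and 2 overlapped. Slc50a1 rose by 1.19 (SE 0.14, limma adjusted p = 2.51e-06) before birth and by 1.28 (SE 0.14, adjusted p = 2.57e-06) across it. The further difference of 0.32 between lactation days 2 and 9 did not pass (adjusted p = 0.113). Over the whole span the level was 6.31-fold higher (2.66, SE 0.14, limma adjusted p = 1.02e-11).

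For Slc5a1, the sodium-glucose cotransporter SGLT1, the step that passed lay in pregnancy. Its arrays read 5.17, 4.74, 4.46 and 4.96 at pregnancy day 12 and 5.73, 5.21, 5.91 and 5.46 at day 17, with no overlap. At lactation day 9 they read 5.60, 6.33, 5.71 and 5.88. The rise was 0.75 (SE 0.21, limma adjusted p = 0.00831) during pregnancy and 1.05 (SE 0.21, adjusted p = 0.000184) over the span, and no step after pregnancy day 17 passed. Slc5a11, a sodium-coupled inositol transporter, rose by 0.87 over the span, but from a mean of 3.62, below the line, in the range where dim probe sets drifted upward. Slc2a8, an intracellular hexose transporter, differed by 0.23 (limma adjusted p = 0.106).

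The phosphate carrier Slc20a1 rose through every stage mean. It encodes PiT-1, a sodium-phosphate cotransporter that is also a retrovirus receptor. The arrays read 6.09, 6.62, 5.87 and 6.17 at pregnancy day 12, and 6.66, 6.48, 6.88 and 7.42 at day 17. They read 7.71, 7.61, 7.77 and 7.93 at lactation day 1, and 8.17, 7.98, 8.22 and 8.26 at day 2. At day 9 they read 7.98, 9.31, 8.70 and 9.06. Days 12 and 17 of pregnancy overlapped, every lactation array stood above every pregnancy array, and lactation day 9 had the widest spread. The change across birth was 0.89 to day 1 and 1.30 to day 2 (SE 0.23 each, limma adjusted p = 0.00781 and 0.00019). The whole span gave 5.97-fold (2.58, SE 0.23, limma adjusted p = 1.01e-08). The pregnancy step of 0.67 (adjusted p = 0.0239) did not pass without array 1 or 3 of pregnancy day 12 (adjusted p = 0.051 and 0.071) or array 4 of day 17 (0.0995).

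The 250 bases upstream of the first listed transcription start were read for 103 of the 127 carriers from RefSeq's promoter table (GRCm38.p6). Each was searched on both strands for the E-box CACGTG, bound by factors of the basic helix-loop-helix class, the STAT-type site TTCNNNGAA, the CCAAT box and TATAAA. Of the 8 matched carriers that rose at least 2-fold over the span, 3 held an E-box (Slc20a1, Slc33a1 and Slc5a1), and of the 4 that fell as much none did. The E-box was in 12 of the 103 carriers (11.7%) and in 6.05% of all 27025 promoters. TTCNNNGAA was in 2.91% of the carriers and 7.18% of all, CCAAT in 31.1% and 34.5%, and TATAAA in 5.83% and 13.0%. Those of 4 risen carriers and of Slc25a4, the adenine nucleotide carrier with the largest fall that ended above the line, are printed to show where these letters stand. Motif matches are in capitals and the last base lies next to the start site. Slc50a1 (chr3:89270571-89270820, minus strand) held none of the 4 motifs. Slc20a1 (chr2:129198523-129198772, plus strand) held 2 E-boxes, the nearer beginning 22 bases before the start, and 1 CCAAT box. Slc5a1 (chr5:33103969-33104218, plus strand) held 1 E-box. Slc33a1 (chr3:63964734-63964983, minus strand), the acetyl-CoA carrier described further on, held 1 E-box between 2 CCAAT boxes, and Slc25a4 (chr8:46211063-46211312, minus strand) 2 CCAAT boxes. A match is a description of the letters, not of a bound site.
Slc50a1: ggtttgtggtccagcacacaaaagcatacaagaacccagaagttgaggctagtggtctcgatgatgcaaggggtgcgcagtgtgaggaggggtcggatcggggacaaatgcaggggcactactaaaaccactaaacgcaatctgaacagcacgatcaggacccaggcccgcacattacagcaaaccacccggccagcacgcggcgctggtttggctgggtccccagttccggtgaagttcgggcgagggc
Slc20a1: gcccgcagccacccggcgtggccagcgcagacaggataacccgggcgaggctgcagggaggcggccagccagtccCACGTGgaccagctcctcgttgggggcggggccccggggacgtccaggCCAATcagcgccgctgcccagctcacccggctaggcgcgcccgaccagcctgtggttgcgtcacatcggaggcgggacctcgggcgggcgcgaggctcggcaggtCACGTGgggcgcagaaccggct
Slc5a1: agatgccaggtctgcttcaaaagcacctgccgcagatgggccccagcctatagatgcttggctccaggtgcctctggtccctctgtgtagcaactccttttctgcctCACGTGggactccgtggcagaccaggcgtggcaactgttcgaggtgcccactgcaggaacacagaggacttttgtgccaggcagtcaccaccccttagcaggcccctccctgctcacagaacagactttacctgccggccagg
Slc33a1: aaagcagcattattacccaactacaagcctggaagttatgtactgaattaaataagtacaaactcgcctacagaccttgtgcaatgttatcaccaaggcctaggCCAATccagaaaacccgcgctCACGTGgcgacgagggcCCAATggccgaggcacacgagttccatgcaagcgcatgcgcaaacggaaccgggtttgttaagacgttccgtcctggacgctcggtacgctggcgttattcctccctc
Slc25a4: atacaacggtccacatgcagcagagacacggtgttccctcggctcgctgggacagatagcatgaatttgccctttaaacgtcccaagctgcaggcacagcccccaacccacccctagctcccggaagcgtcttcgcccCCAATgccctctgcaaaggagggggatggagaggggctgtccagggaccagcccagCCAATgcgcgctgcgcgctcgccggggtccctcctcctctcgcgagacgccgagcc

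Of the 10 zinc carriers tested, 5 rose and 1 fell between pregnancy day 12 and lactation day 9, where 35.2% of all probe sets rose and 42.4% fell. Quantile normalization and equal ribosomal medians each gave 9 and 1, and moved the group's median of 0.39 to 0.78 and 0.76. The Slc39 (ZIP) proteins bring zinc into the cytosol and the Slc30 (ZnT) proteins move it out of the cytosol into vesicles or the Golgi apparatus. Slc39a6 encodes ZIP6, an estrogen-responsive importer at the cell surface. It read 5.76, 5.81, 5.09 and 5.77 at pregnancy day 12, 6.64, 6.86, 6.74 and 7.08 at day 17 and 8.02, 7.89, 7.97 and 8.18 at lactation day 1. At lactation day 2 it read 7.04, 8.13, 7.56 and 7.89, and at day 9 it read 7.83, 8.44, 8.14 and 8.20. The first 3 stages did not overlap, and 1 array of lactation day 2 fell back into the range of late pregnancy. Slc39a6 rose by 1.22 before birth and by 1.19 to lactation day 1 (SE 0.20 each, limma adjusted p = 7.11e-05 and 0.000218), and by 2.55 over the span (5.84-fold, adjusted p = 1.6e-09).

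Slc39a7 encodes ZIP7, which releases zinc from the endoplasmic reticulum. It rose by 1.10 (SE 0.15, limma adjusted p = 1.12e-05) during pregnancy, from a mean of 8.87 ± 0.21 to 9.98 ± 0.28 (SD, n = 4). It peaked at 10.32 ± 0.29 on lactation day 1 and was back at 9.33 ± 0.11 by day 9, a fall of 0.54 from day 2 (adjusted p = 0.0121) that did not pass after quantile normalization (adjusted p = 0.146). Slc30a4 encodes ZnT4, the transporter whose loss leaves mouse milk zinc-deficient. Its arrays read 8.32, 8.70, 8.46 and 8.71 at pregnancy day 12, 8.79, 8.80, 9.13 and 9.23 at day 17 and 9.54, 9.61, 9.74 and 9.61 at lactation day 1. The 3 stages did not overlap. The step to lactation day 1 was 0.63 (SE 0.12, limma adjusted p = 0.000923), and lactation days 2 and 9, at means of 9.45 and 9.46, overlapped. Over the span the rise was 0.91, and the gene's other tested probe set gave 0.91 too, but for the step to lactation day 1 that set gave 0.16, which did not pass.

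Slc39a4 moved the other way, with the largest fitted change among the carriers. It encodes ZIP4, the intestinal importer mutated in acrodermatitis enteropathica. Its arrays read 5.92, 5.25, 4.77 and 5.98 at pregnancy day 12, 5.53, 4.16, 4.12 and 4.32 at day 17, and between 1.46 and 1.66 on all 12 lactation arrays. The lactation values were far below the line, so the fall of 3.04 to lactation day 1 (SE 0.26, limma adjusted p = 6.18e-08) says that the signal was lost, not by how much. Slc30a9 rose by 0.90 and Slc30a3, best known from synaptic vesicles, by 0.59. Slc39a1, Slc39a3, Slc39a9 and Slc30a5 gave differences between -0.02 and 0.32 that did not pass over the span. Of these Slc30a5, a Golgi exporter, was higher at lactation day 1 than in late pregnancy by 0.57, a call lost when array 2, 3 or 4 of lactation day 1 or array 1 or 2 of pregnancy day 17 was left out (adjusted p = 0.0657 to 0.163).

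**Figure D2:**
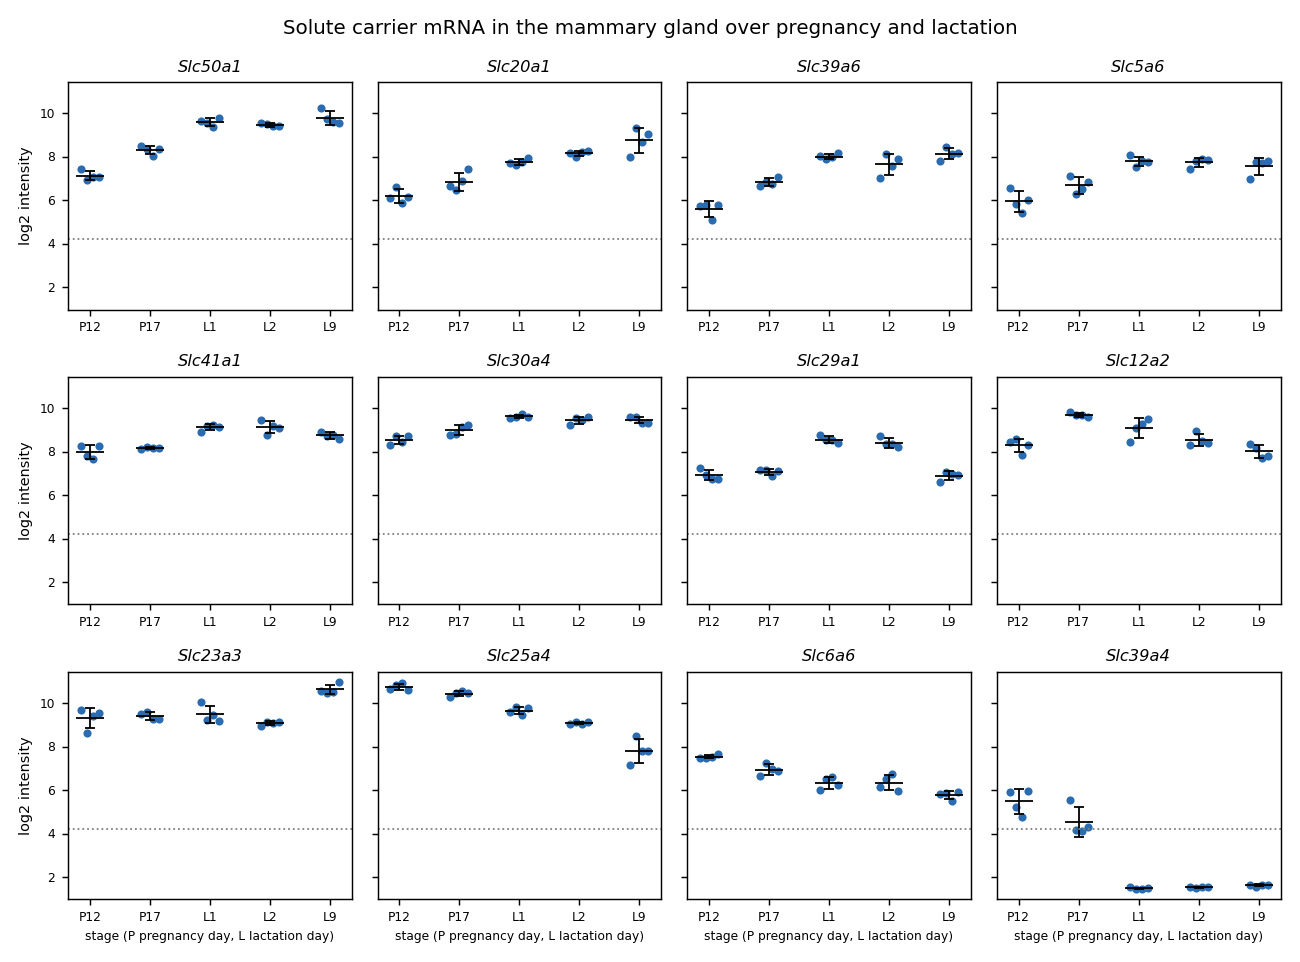
Log2 intensity of 12 carriers in mammary gland (y axis) at pregnancy days 12 and 17 (P12, P17) and lactation days 1, 2 and 9 (L1, L2, L9); points are single arrays, bars the mean and SD of 4 arrays, and the dotted line is the median of all values, 4.22. Slc50a1, Slc20a1 and Slc39a6 climb, Slc29a1 is raised on lactation days 1 and 2, Slc12a2 peaks at pregnancy day 17, Slc23a3 is highest at lactation day 9, and Slc25a4, Slc6a6 and Slc39a4 decline.

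Of the 6 vitamin and choline carriers tested, 2 rose and 1 fell over the span, with 4 and 1 after quantile normalization and 5 and 1 with ribosomal medians equalised. Slc5a6 encodes the sodium-dependent multivitamin transporter, which carries biotin and pantothenate, the precursors of the carboxylase cofactor and of coenzyme A. It read 6.56, 5.82, 5.43 and 6.04 at pregnancy day 12, 7.14, 6.27, 6.51 and 6.84 at day 17 and 8.06, 7.53, 7.82 and 7.76 at lactation day 1. At lactation day 2 it read 7.46, 7.80, 7.91 and 7.87, and at day 9 it read 6.98, 7.74, 7.72 and 7.82. Lactation days 1 and 2 stood clear of pregnancy, and the low array of day 9 fell within late pregnancy. The step across birth was 1.11 (SE 0.23, limma adjusted p = 0.00138) and the span 1.60 (3.04-fold, adjusted p = 3.34e-06). The pregnancy step of 0.73 (adjusted p = 0.0145) did not pass without array 3 of pregnancy day 12 (0.0571) or array 1 of day 17 (0.0546).

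Slc23a3, an orphan relative of the ascorbate transporters, kept its place until established lactation. It read 9.70, 8.62, 9.39 and 9.55 at pregnancy day 12 and 8.97, 9.15, 9.08 and 9.12 at lactation day 2. At lactation day 9 it read 10.57, 10.46, 10.53 and 10.95, above all 16 earlier arrays. From day 2 to day 9 it rose by 1.55 (2.93-fold, SE 0.20, limma adjusted p = 1.72e-05), the 1 rise of at least 2-fold that passed among the carriers in that comparison (background 1.99%). Slc44a1, a choline transporter, fell from 8.07 ± 0.19 to 7.05 ± 0.15 (SD, n = 4), by 1.02 over the span (SE 0.12, limma adjusted p = 3.3e-07). Its fall of 0.58 to lactation day 1 (adjusted p = 0.00145) did not pass with ribosomal medians equalised (0.0837). The folate carrier Slc46a1 differed by 0.15 (adjusted p = 0.231).

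Both carriers of calcium or magnesium tested rose over the span. Slc41a1 encodes a magnesium transporter. Its arrays read 8.14, 8.20, 8.15 and 8.19 at pregnancy day 17, 8.92, 9.19, 9.22 and 9.13 at lactation day 1 and 9.47, 8.79, 9.18 and 9.08 at day 2. The increase came across birth, by 0.95 to day 1 and 0.96 to day 2 (SE 0.15 each, limma adjusted p = 9.03e-05 and 3.65e-05), with no overlap. Slc8a1, the sodium-calcium exchanger NCX1, went from 3.90 ± 0.16 to 4.83 ± 0.21 (SD, n = 4), a rise of 0.93 that lay mostly below or near the line.

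Carriers of the secretory pathway supply the Golgi apparatus and endoplasmic reticulum with building blocks. Of the 3 tested 2 rose over the span, where 35.2% of all probe sets rose. Slc35a2 brings UDP-galactose into the Golgi apparatus, the donor of lactose synthesis. It read 6.62, 6.25, 6.59 and 6.47 at pregnancy day 12 and 6.99, 7.02, 7.00 and 6.85 at day 17, with no overlap, and rose by 0.48 (SE 0.11, limma adjusted p = 0.00148). Its means then stayed between 7.18 and 7.20 through lactation. Slc33a1, which brings acetyl-CoA into the endoplasmic reticulum, read 4.62, 4.80, 5.24 and 5.02 at pregnancy day 17 and 5.32, 5.75, 6.20 and 6.40 at lactation day 1. It rose across birth by 1.00 (2-fold, SE 0.18, limma adjusted p = 0.000336). Slc35a1, the CMP-sialic acid carrier, was raised by 0.61 at lactation day 1 but its span difference of -0.19 did not pass (adjusted p = 0.329).

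Slc29a1, the nucleoside transporter ENT1, was raised on the first days of lactation. It read 7.15, 7.16, 6.87 and 7.10 at pregnancy day 17, 8.75, 8.54, 8.54 and 8.39 at lactation day 1 and 8.72, 8.35, 8.34 and 8.23 at day 2. By lactation day 9 it read 6.59, 7.06, 6.97 and 6.93. All 8 arrays of lactation days 1 and 2 stood above all 12 others. The rise was 2.8-fold (1.48, SE 0.14, limma adjusted p = 1.82e-07), the largest among the carriers across birth, and the fall from day 2 to day 9 was 1.52 (adjusted p = 3.22e-07). Its difference over the span, -0.03, turned to 0.47 after quantile normalization and 0.34 with ribosomal medians equalised.

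Mitochondrial and related Slc25 carriers split: of 15 tested, 5 rose and 6 fell over the span, and their median of -0.12 turned to 0.13 after quantile normalization and 0.26 with ribosomal medians equalised. The largest fall was of Slc25a4, the adenine nucleotide translocator ANT1, the form typical of heart and muscle. It read 10.63, 10.83, 10.92 and 10.59 at pregnancy day 12, 10.26, 10.48, 10.55 and 10.45 at day 17 and 9.59, 9.81, 9.47 and 9.76 at lactation day 1. It read 9.04, 9.11, 9.06 and 9.11 at day 2 and 7.16, 8.48, 7.79 and 7.79 at day 9. No 2 stages overlapped. The difference during pregnancy, -0.31, did not pass (limma adjusted p = 0.167). Slc25a4 fell by 1.35 to lactation day 2 and by a further 1.28 to day 9 (SE 0.18 each, adjusted p = 7.66e-06 and 3.69e-05), or 2.93 in all (7.65-fold lower, adjusted p = 5.45e-11). None of 8 skeletal muscle markers was above the line at pregnancy day 12, which does not show absence, and the 3 tested rose over the span. Adipocyte markers declined over the same stages, 8 of 9 passing with a median of -2.36. The part of muscle or fat cells in the fall of Slc25a4 was not tested.

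The other translocator, Slc25a5 (ANT2), moved little: its brightest probe set fell by 0.37 over the span and another of the same gene rose by 0.30. The brightest carries the array maker's suffix for sets that may detect several members of a family. Slc25a10, the dicarboxylate carrier that exports malate or succinate for phosphate, rose from 9.38 ± 0.29 to 9.88 ± 0.15 (SD, n = 4) during pregnancy, by 0.50 (SE 0.14, limma adjusted p = 0.00662), and by 0.48 over the span. Slc25a17, a peroxisomal carrier of coenzyme A and related cofactors, read 7.60, 7.73, 7.58 and 7.73 at pregnancy day 17 and 8.16, 8.80, 8.64 and 8.73 at lactation day 1. It rose by 0.92 (SE 0.15, limma adjusted p = 0.000186) and then fell by 0.53 between lactation days 2 and 9 (adjusted p = 0.0146), a call lost without array 2 of lactation day 2 (0.0658) and after quantile normalization (0.0839). Slc25a11, the oxoglutarate-malate carrier, fell by 0.74 over the span (adjusted p = 3.25e-06), with 0.61 of it between lactation days 2 and 9. Slc25a39, a mitochondrial glutathione carrier, dipped from 9.44 ± 0.25 at pregnancy day 17 to 8.69 ± 0.24 at lactation day 1, a fall of 0.75 (adjusted p = 0.000529). Slc25a36, a pyrimidine nucleotide carrier, fell by 0.82 over the span (adjusted p = 0.00305), which did not pass after quantile normalization (0.165) or with ribosomal medians equalised (0.075). Slc25a28, a mitochondrial iron carrier, fell by 0.97 over the span and Slc25a15, the ornithine carrier, by 0.60, which did not pass with ribosomal medians equalised (-0.23, adjusted p = 0.222). Slc25a45, Slc25a48 and Slc25a14 rose by 1.05, 0.69 and 0.66, and by as little as 0.63, 0.40 and 0.41 under the alternative settings. The arrays of Slc25a45 read only 4.87 to 5.04 at lactation day 2, near the range where dim probe sets drifted upward.

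Of 5 amino acid and peptide carriers tested, 4 rose over the span and none fell, where 35.2% of all probe sets rose. Slc38a10, a glutamine-family carrier, was the brightest, and rose from 8.51 ± 0.21 to 9.30 ± 0.22 (SD, n = 4), by 0.79 (SE 0.12, limma adjusted p = 9.1e-06), with 0.81 from a second probe set. At lactation day 1 the sets gave 0.61, which passed, and 0.14, which did not. Slc7a11, the cystine-glutamate exchanger, Slc38a5, a neutral amino acid carrier, and Slc1a1, a glutamate carrier, rose by 0.94, 0.61 and 0.68. Their starting means, between 3.87 and 4.21, were below the line, in the range where dim probe sets drifted upward. Slc15a2, the peptide transporter PEPT2, followed a different course. It read 7.54, 7.33, 7.25 and 7.45 at pregnancy day 17, 6.57, 6.48, 6.51 and 6.58 at lactation day 1, 6.32, 6.38, 6.14 and 6.53 at day 2, and 7.46, 6.91, 6.98 and 6.75 at day 9. The arrays of the first days of lactation lay below all of late pregnancy and of lactation day 9. The fall to lactation day 2 was 1.05 (2.07-fold, SE 0.20, limma adjusted p = 0.00044). The return of 0.69 by day 9 (adjusted p = 0.0182) did not pass without array 3 of lactation day 2 (0.0566) or array 1 of day 9 (0.0763).

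In the Slc6 family, 3 could be tested over the stages. Slc6a6, the taurine transporter, read 7.48, 7.49, 7.54 and 7.66 at pregnancy day 12, 6.65, 7.25, 6.99 and 6.89 at day 17 and 5.82, 5.87, 5.50 and 5.90 at lactation day 9. Those 3 stages did not overlap, and the fall over the span was 1.77 (3.41-fold, SE 0.16, limma adjusted p = 1.6e-08). A second probe set of Slc6a6 rose by 0.64 over the span and also passed, so the direction for the gene depends on the probe set. Slc6a8, the creatine transporter, read 3.75, 3.98, 4.01 and 4.02 at lactation day 2 and 4.32, 4.14, 5.17 and 5.11 at day 9, a rise of 0.74 (SE 0.20, limma adjusted p = 0.00909) that crossed the line only at day 9. Slc6a2, the noradrenaline transporter, rose by 0.69.

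Of 3 cation-chloride cotransporters tested, 2 fell over the span and none rose. The other, Slc12a2 or NKCC1, brings sodium, potassium and chloride into epithelial cells. It read 8.45, 8.57, 7.84 and 8.29 at pregnancy day 12 and 9.81, 9.67, 9.69 and 9.61 at day 17. It read 8.46, 9.08, 9.29 and 9.52 at lactation day 1, 8.32, 8.95, 8.51 and 8.41 at day 2, and 8.38, 8.15, 7.73 and 7.82 at day 9. Pregnancy day 17 stood above all 16 other arrays of the time course. Slc12a2 rose by 1.41 (2.65-fold, SE 0.20, limma adjusted p = 2.15e-05), the largest rise of a carrier during pregnancy, and fell by 1.15 to lactation day 2 (adjusted p = 0.000187). The fall of 0.61 to lactation day 1 (adjusted p = 0.0368) did not pass without array 1 or 2 of that day (0.146 and 0.069) or any 1 array of pregnancy day 17 (0.0535 to 0.0892). The potassium-chloride exporters Slc12a7 and Slc12a4 fell by 1.05 and 0.48 over the span, to means of 4.02 and 3.98, below the line. The second did not pass with ribosomal medians equalised (adjusted p = 0.437).

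Among 6 genes of anion, acid-base and sodium-proton transport, 3 rose and none fell over the span, with 5 rising after quantile normalization and also with ribosomal medians equalised. The 3 were Slc26a2, a sulfate transporter (0.57), and the non-carriers Slc4a1ap (0.42) and Slc9a3r2 (0.38). The arrays of Slc26a2 read 4.78 to 4.85 at lactation day 1, in the range where dim probe sets drifted upward, by a median of 0.42 over the span. Slc9a3r1, the scaffold NHERF1, dipped from 8.90 ± 0.28 at pregnancy day 17 to 8.15 ± 0.18 at lactation day 1 and stood at 9.05 ± 0.16 by day 9 (SD, n = 4). Of 3 carriers of iron, copper and heme, 2 rose. The copper importer Slc31a1 (CTR1) read 7.41, 7.35, 7.39 and 7.42 at pregnancy day 12, 8.35, 8.09, 8.29 and 8.39 at day 17 and 8.93, 8.90, 8.51 and 8.60 at lactation day 9, without overlap. It rose by 0.89 during pregnancy and by 1.34 over the span (2.54-fold, SE 0.11, limma adjusted p = 4.8e-09), while its second probe set gave 0.53, which passed, and 0.20, which did not. The heme transporter Slc48a1 rose by 0.45 over the span, and the iron importer Slc11a2 differed by -0.09 (adjusted p = 0.612).

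The fatty acid carriers tested moved apart. Slc27a1 encodes FATP1, the long-chain fatty acid transport protein of adipose tissue and muscle. It read 9.39, 9.32, 9.35 and 8.51 at pregnancy day 12, 8.51, 8.47, 8.06 and 7.97 at day 17 and 7.90, 7.42, 7.91 and 7.86 at lactation day 9. Days 12 and 17 of pregnancy touched at 8.51, the low array of day 12, but did not cross, and lactation day 9 lay below both. Slc27a1 fell by 0.89 during pregnancy (SE 0.21, limma adjusted p = 0.00189) and by 1.37 over the span (2.59-fold, adjusted p = 6.77e-06), beside the fall of the adipocyte markers given above, whose part was not tested. Slc27a5, the bile acyl-CoA synthetase of liver, rose by 0.95 from 3.94, below the line. Among carriers of organic ions, Slc22a18 rose by 1.15 (2.22-fold, SE 0.15, limma adjusted p = 8.1e-06) during pregnancy, from 4.80, 4.46, 3.96 and 4.72 to 5.82, 5.61, 5.59 and 5.52, and fell by 0.54 between lactation days 2 and 9. The lactate and pyruvate carrier Slc16a1 differed by 0.41 over the span (adjusted p = 0.0523). Of the bile acid family, Slc10a1 and Slc10a2 rose by 0.91 and 0.77 at levels close to the line and Slc10a3 fell by 0.70.

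Brightness mattered to these counts. Among carriers with a mean at or above the 75th percentile of all values (6.12), 15 of 32 rose and 7 fell over the span (46.9% and 21.9%), where 23.0% of all such probe sets rose and 54.7% fell. Among those with a mean under 5, 15 of 26 rose (57.7%), close to the 55.4% of all probe sets that dim. For the other membrane transporters on the array, pumps, channels, aquaporins, connexins and ABC transporters, 36 of 54 could be tested, and 15 rose and 12 fell over the span with a median of 0.17. In the same comparison Atp2b2, the plasma membrane calcium pump that loads milk with calcium, rose by 4.97, Gjb1, a connexin, by 3.97, and Abcg2, the riboflavin and drug exporter of milk, by 3.27. No tested carrier of the 127 rose as far as these 3.

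The diet comparison asked whether dietary fat changed carrier expression in the lactating gland. Of 69 carriers tested between the 40% and 8% diets, 1 passed and it was higher (background 0.0925%, 6 of 6483 probe sets, with 0.0463% in each direction). Slc4a2, the chloride-bicarbonate exchanger AE2, read 5.19, 5.13 and 5.05 on 8% fat, 5.64, 5.57 and 5.35 on 16% and 5.90, 5.92 and 6.06 on 40%. The 3 groups did not overlap, and the difference was 0.84 (95% interval 0.60 to 1.07, limma adjusted p = 0.0231). That call was lost when any 1 of the 6 arrays compared was left out (adjusted p = 0.0543 to 0.118). No carrier passed the test as lower on 40% fat (limma). Slc23a3 read 9.84, 10.10 and 10.21 on 8% and 10.57, 10.36 and 10.53 on 40%, a difference of 0.44 (interval 0.17 to 0.71, adjusted p = 0.298). Slc46a1, which takes up folate and heme, read 6.79, 6.68 and 6.78 on 8% and 6.39, 6.39 and 6.34 on 40%, a difference of -0.37 (interval -0.64 to -0.10, adjusted p = 0.394). Neither pair of groups overlapped, as was so for 13.1% of all probe sets. Slc20a1 had the largest difference after Slc4a2, -0.67, within an interval of -1.40 to 0.06 and with overlapping arrays. The differences of the main risen carriers were bounded more closely, with intervals of -0.36 to 0.32 for Slc50a1 and -0.27 to 0.38 for Slc30a4. For the other membrane transporters, 0 of 32 passed.

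**Figure D3:**
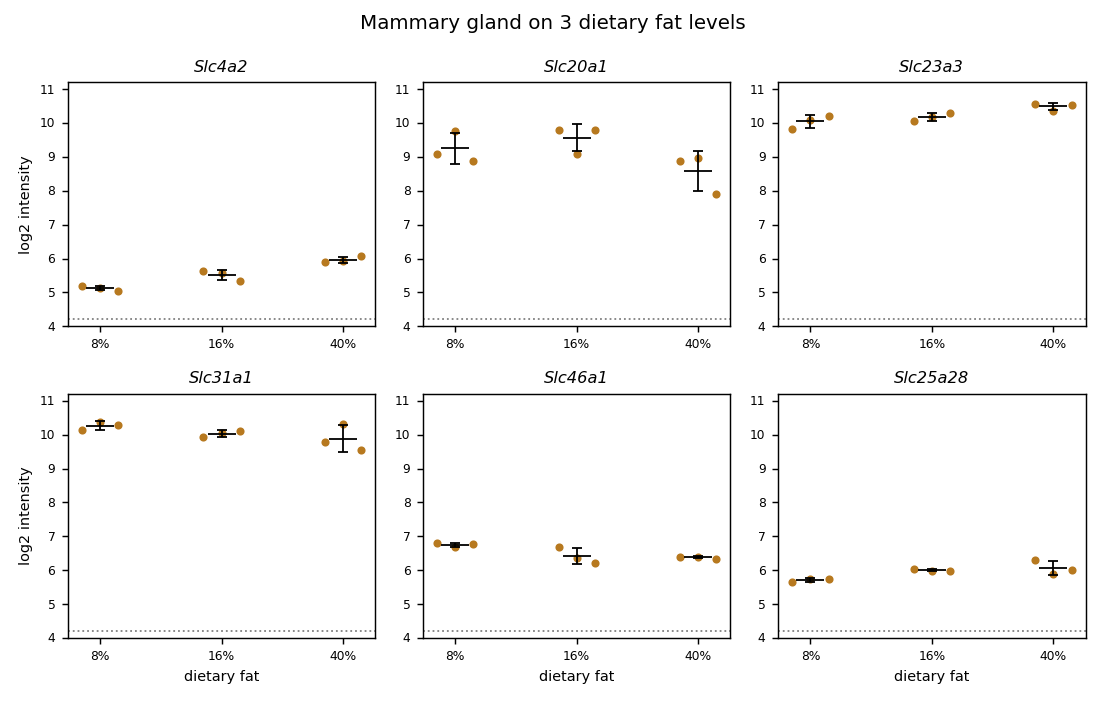
Log2 intensity of 6 carriers in mammary gland (y axis) on 8%, 16% and 40% dietary fat (x axis); points are single arrays, bars the mean and SD of 3 arrays, and the dotted line is the median of all values, 4.22. The 3 groups of Slc4a2 do not overlap, at means of 5.12, 5.52 and 5.96, while those of Slc20a1 and Slc31a1 do.

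Liver and mammary gland of dams on 8% fat shared most of the carriers that were above the line. Above the line were 75 of the 127 in liver and 65 in the gland, 56 of them in both, 19 in liver alone and 9 in the gland alone. Of 84 tested, 76 differed (background 80.0%), 39 higher in liver (39.7% of all probe sets) and 37 higher in the gland (40.3%). Differences that passed and were at least 2-fold held for 28 on the liver side (background 23.6%) and 17 on the gland side (background 15.7%). The median difference was 0.03 for the carriers and -0.01 for all probe sets. That split followed the scaling: quantile normalization gave 34 and 41, and equal ribosomal medians 67 and 14, as the median of all probe sets moved to -0.23 and 1.10. With equal ribosomal medians 21 of the 37 gland-side calls changed sign.

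By role, 2 of 4 sugar carriers tested were higher in liver and 2 in the gland, and of 7 amino acid and peptide carriers 3 and 4. Of all probe sets, 39.7% were higher in liver and 40.3% in the gland, shares that apply to each such tissue count below. Among the carriers much higher in liver, Slc2a2, the glucose transporter GLUT2, read 11.15, 11.11 and 11.26 in liver and 2.99, 2.96 and 2.96 in the gland. Slc10a1, the bile acid importer NTCP, read 11.36, 11.60 and 11.94 in liver and 4.34, 4.27 and 4.24 in the gland, a difference of 7.35 (SE 0.15, limma adjusted p = 3.42e-09). A second probe set of Slc10a1 gave 9.11 the same way and another -0.46. Slc27a5, which activates bile acids and fatty acids, read 10.20, 10.01 and 10.09 against 4.54, 4.49 and 4.51 (5.59, SE 0.09, limma adjusted p = 9.15e-10). Liver and gland arrays of these 3 genes did not overlap, but neither did those of 76 of the 84 carriers tested. The share over all probe sets is not given.

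Slc38a4, a system A amino acid transporter (9.43, 9.55 and 9.41 in liver), Slc25a47, a liver mitochondrial carrier (10.22, 10.45 and 10.25), and Slc22a30 (9.05, 8.85 and 8.99) had gland means below the line, as did Slc6a13, a GABA and taurine carrier, Slc26a1, a sulfate carrier, and Slc25a15. The size of such differences was not measured, only that they were large. Slc39a4, below the line in the lactating gland, read 7.12, 7.39 and 7.09 in liver. Slc29a1 was higher in liver by 2.00. Slc6a6 was higher there by 2.14 in its brightest probe set, while its other set gave 0.61, which did not pass.

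On the gland side the largest differences were of Slc41a1, Slc50a1 and Slc39a6. Slc50a1 read 5.61, 5.44 and 5.38 in liver and 9.71, 9.87 and 10.12 in the gland, 21.5-fold higher in the gland (4.43 in log2, given as liver minus gland of -4.43, SE 0.13, limma adjusted p = 2.93e-08). Slc41a1 read 3.48, 3.02 and 3.34 in liver, below the line, and 9.04, 8.87 and 9.11 in the gland. Slc39a6 read 3.96, 4.27 and 4.59 in liver and 8.29, 8.53 and 8.59 in the gland. Arrays of the tissues did not overlap for any of these 3, as for most carriers tested. Slc30a4 stood 9.94-fold, Slc5a6 8.58-fold and Slc20a1 6.72-fold higher in the gland (SE 0.14, 0.16 and 0.21 in log2, limma adjusted p = 2.14e-07, 8.05e-07 and 1e-05). For Slc30a4 the size depended on the probe set: liver minus gland was -3.31 in log2 for the brightest and -0.44 for the other, which also passed. The other gland-side carriers past 4-fold were Slc5a1, below the line in liver, Slc27a1, Slc15a2, Slc12a2, Slc25a36 and Slc23a3. Of 11 zinc carriers tested, 6 were higher in the gland and 3 in liver, which turned to 2 and 8 with ribosomal medians equalised. The 8 that did not pass were Slc25a5, Slc25a14, Slc25a51, Slc30a3, Slc30a5, Slc33a1, Slc44a1 and Slc9a8, with differences between -0.24 and 0.32. For the other membrane transporters, 17 of 38 were higher in liver and 14 in the gland.

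**Figure D4:**
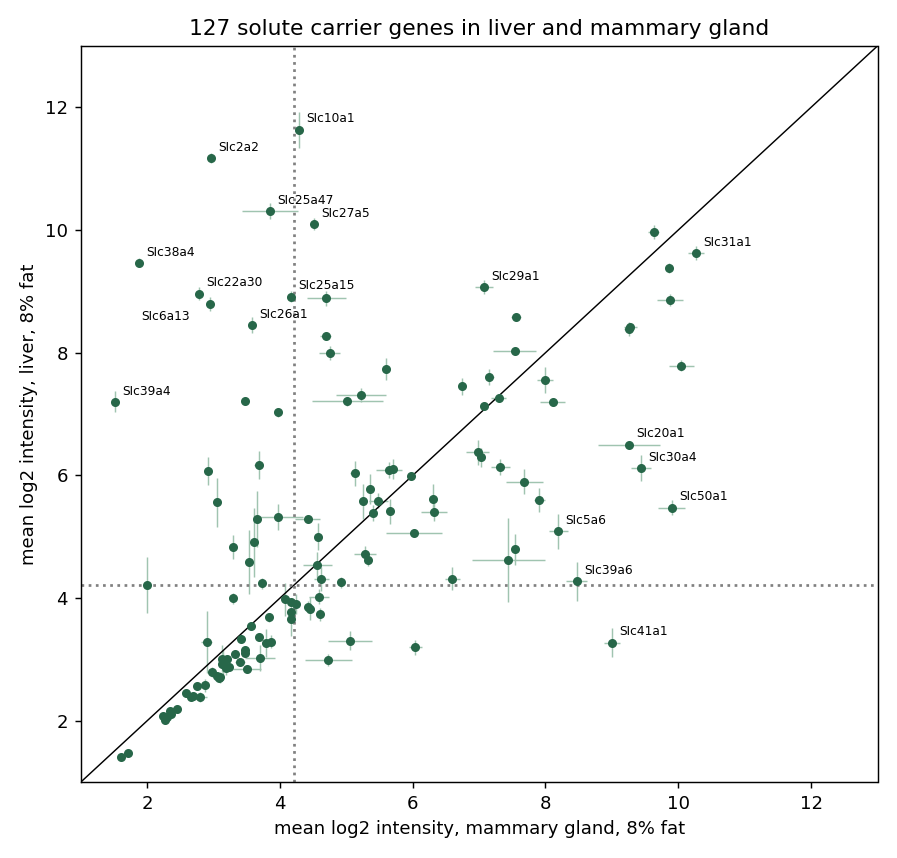
Mean log2 intensity of the 127 carriers in liver (y axis) against mammary gland (x axis), both on 8% fat; thin bars are the SD of 3 arrays, the diagonal marks equal means and the dotted lines the median of all values, 4.22. Slc2a2, Slc10a1 and Slc38a4 stand far above the diagonal, and Slc41a1, Slc50a1 and Slc39a6 far below it.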

How the data were processed

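Expression was measured on 32 MG_U74Av2 arrays, 1 per RNA sample. The authors deposited linear GCRMA intensity values, per the submitters' processing notes and the values themselves (12488 probe sets, 0.684 to 58520). The scanner files were not used here, and no scan date or batch was given, so batches could not be examined. Biotin-labelled cRNA was made from total RNA, per the labels' protocols. Values below 1 were raised to 1 (208 of 399616) and log2 was taken. The 66 control probe sets were left out. Of the others, 10833 name 1 gene in the platform's annotation, 396 several and 1193 none, and only the first were used for carriers. 10817 were matched to RefSeq by Entrez identifier.

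Groups were fitted with limma 3.58.1 (R 4.3.3; lmFit and eBayes) in 3 fits: the 5 stages (20 arrays), the 3 mammary diets (9) and liver against mammary gland on 8% fat (6). A probe set entered a fit if its highest group mean reached the median of all values (18.6, log2 4.22). P-values were adjusted by Benjamini-Hochberg over all probe sets tested, and a call is an adjusted p under 0.05. No replicate block was used in these fits. Deviations from the group means were correlated between arrays sharing a replicate number. Over the stages the values ran from -0.25 to 0.29, 11 of 40 over 0.1, with a median of 0.00073 (other pairs 0.0061). In the diet fit the medians were 0.064 and -0.018. Such values cannot exclude a pairing. The number of arrays limits the precision. Simulated data held 200 changed probe sets per fit and independent noise. There, 2-fold changes were recovered at 90.3% in the stage fit, 88.2% in the diet fit and 82.7% in the tissue fit. For 1.5-fold changes the rates were 55.5%, 45.0% and 35.8%. Recovery depends on the share of probe sets that change. In the data, 6 of 6483 were called for diet and 80.0% for the tissues, so these rates are not the power of the fits here.

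Members, role groups and marker lists were chosen with earlier results of these data known. Per comparison, the rule for named genes took up to 8 rises and 8 falls that passed without overlap, up to 2 called carriers and the brightest uncalled one of each role group, and a set of carriers named throughout; the text names some of these. The alternatives were no filter, a 75th percentile filter (69.5), log2 of the value plus 16, quantile normalization, equal medians of 11 ribosomal genes, averaging the probe sets that share a gene, a fit of the compared groups alone, a replicate block, and leaving out each array. Promoter sequences are RefSeq's, 1 per gene, 250 bases before the start.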

Additional observations from a re-analysis of the deposited data

Results flagged for a closer look

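Among 264 sets of 4 arrays (the 72 named carriers at each stage where they were above the line), 18 held an array far from the other 3 by Dixon's test, which chance gives in about 1 of 20 sets. Their causes were not tested.

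For carriers whose course turns on the stage, Slc39a4 read 5.53 on array 1 of pregnancy day 17, where the others read 4.12 to 4.32. Slc39a6 read 5.09 on array 3 of pregnancy day 12, below the others. Slc5a6 read 6.98 on array 1 of lactation day 9, where the others read 7.72 to 7.82. Slc27a1 was low in both of its sets, at 8.51 on array 4 of pregnancy day 12 and at 7.42 on array 2 of lactation day 9. Slc31a1 read 8.96 on array 2 of lactation day 1, above the others. Slc35a2 read 6.85 on array 4 of pregnancy day 17, below the others. Slc38a10 was low at 8.19 on array 3 of pregnancy day 12 and at 9.20 on array 3 of lactation day 1.

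Of the other carriers at lactation day 1, array 3 gave Slc11a2 6.64 and Slc39a1 7.47, array 2 gave Slc22a23 4.33, and array 4 gave Slc25a28 5.66 and Slc26a2 4.85. The remaining values were Slc25a45 at 4.87 on array 2 of lactation day 2, Slc30a3 at 5.50 on array 4 of pregnancy day 12, Slc30a9 at 5.73 on array 1 of lactation day 9 and Slc7a11 at 4.53 on array 2 of lactation day 9.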

How the results depend on the processing

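The number of carriers called followed the filter and the scaling more than any 1 array. With no filter the counts were 60 (pregnancy day 17 against 12), 76 (lactation day 2 against pregnancy day 17), 98 (lactation day 9 against pregnancy day 12) and 114 (any stage). With the 75th percentile filter they were 16, 18, 24 and 34, and 49 for liver against gland, because fewer probe sets were tested. Equal ribosomal medians gave 51 for lactation day 1 and 64 for day 2 against pregnancy day 17. The single diet call became 0 with quantile normalization, the compared groups alone or the block. The 75th percentile filter left its gene, Slc4a2, untested, and no other carrier passed there. Leaving out 1 array gave 28 to 30 calls for pregnancy day 17 against 12, 19 to 23 for lactation day 1, 32 to 37 for day 2, 12 to 18 for day 9 against day 2, 49 to 50 over the span, 59 to 61 for any stage, 0 for diet and 73 to 77 for liver. A filter leaves some carriers untested. Of the 48 calls over the span, 24 were tested under every alternative and 22 of those were kept in all. For liver 49 of 76 were tested throughout and 39 kept, for lactation day 2 against pregnancy day 17 21 of 39 and 12, for day 9 against day 2 11 of 15 and 4.

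Directions turned for these named carriers, called or not, and the cause was not tested. With equal ribosomal medians Slc1a1 became 0.30 at lactation day 1 against pregnancy day 17, and at lactation day 2 Slc10a3 became 0.32, Slc11a2 0.50, Slc25a28 0.50 and Slc39a7 0.41. Over the span Slc29a1 became 0.34, and in liver against gland Slc11a2 became 0.18, Slc16a1 0.14, Slc25a5 1.06, Slc35a2 0.35 and Slc8a1 0.47. They were not the only ones: of the 76 calls between liver and gland, 21 changed sign with equal ribosomal medians, all from gland-side to liver-side and to between 0.075 and 0.78, and 14 of these passed the test on the other side. Slc25a15 turned to 0.026 at lactation day 2. Quantile normalization turned Slc11a2 (0.33), Slc25a39 (0.36), Slc25a5 (0.13) and Slc29a1 (0.47) over the span, and Slc30a3 (-0.31), Slc35a1 (-0.0080), Slc44a1 (-0.37) and Slc25a39 (-0.32) in the tissues. The mean of all probe sets turned Slc31a1 (-0.24, lactation day 2) and Slc25a5 (0.13, span).

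Whether the replicate numbers pair the samples was not settled. With the number as a block, the calls were 28, 23, 36, 20 and 49 for pregnancy day 17, lactation day 1, lactation day 2, day 9 against day 2 and the span, 62 for any stage, 0 for diet and 75 for liver. Signal over background limits carriers below the line, whose changes have no measured size.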
